A study of Homo sapiens with 18 samples.

Results

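Centromere protein (CENP) genes encode parts of the kinetochore, the structure through which chromosomes hold on to spindle microtubules during cell division. The histone variant CENPA marks the centromere, a constitutive inner group of CENP proteins binds its nucleosomes, and outer proteins such as CENPE and CENPF join around mitosis. Many of these genes are transcribed most strongly in dividing cells. CENPN, which works together with CENPL, is an inner protein that reads the CENPA nucleosome.

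Described here are 10 CENP genes out of 34912 genes measured, and the 9 transcripts of CENPN out of 164776. They are CENPN, CENPA, CENPH, CENPI, CENPK, CENPM, CENPU, CENPW, CENPE and CENPF. They were picked by name after results of these data were known, with the high androgen response of CENPN in view. The R1881 against vehicle values of the members are therefore a description without a test, and only the knockdown comparisons of the members were tested.

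RNA was sequenced from LNCaP cells, an androgen-responsive human prostate cancer line of luminal type. The cells were transfected with siNFYA, siKLF5 or a control siRNA, held for 48 h in medium with 5% charcoal-stripped serum to withdraw steroids, and then given 10 nM R1881, a synthetic androgen, or the ethanol vehicle for 24 h. NFYA is a subunit of the factor that binds CCAAT sequences, and KLF5 is a zinc finger transcription factor. The groups were siNFYA with R1881, siNFYA with vehicle, siKLF5 with R1881, siKLF5 with vehicle, control siRNA with R1881 and control siRNA with vehicle. Each holds 3 libraries, except siKLF5 with vehicle, where replicate 1 is not analysed here and replicates 2 and 3 were used. All groups share the steroid-poor medium and 1 cell line, and the labels do not say whether the libraries of a group came from separate cultures, so p-values measure only the spread between these libraries.

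The libraries held between 4416653 and 6872421 estimated counts. The siRNAs lowered their targets in part. NFYA averaged 56.2 ± 2.61 counts per 1000000 (CPM) in siNFYA cells and 87.0 ± 2.64 CPM in control cells under R1881 (SD, n = 3 each; log2 change -0.62, edgeR adjusted p = 2.37e-07), and its log2 change under vehicle was also -0.62 (adjusted p = 4.07e-07). KLF5 averaged 12.8 ± 2.10 CPM in siKLF5 cells and 28.4 ± 3.36 CPM in control cells under R1881 (log2 change -1.15, edgeR adjusted p = 0.000228). Under vehicle KLF5 averaged 1.97 CPM in siKLF5 cells (n = 2) and 4.16 CPM in control cells, a difference that did not pass the test (adjusted p = 0.149). KLK3, the androgen-induced gene for prostate-specific antigen, averaged 3728 CPM with R1881 and 59.4 CPM with vehicle under control siRNA. All 7 luminal LNCaP markers passed the filter on low counts, as did 5 of 11 markers of other cells. Among the latter in control cells with vehicle, COL1A1 averaged 12.42 CPM, VWF 8.707, CD68 4.497, ACTA2 2.791 and SYP 1.569 CPM. CHGA, KRT14, PECAM1, PTPRC and TP63 were lower than SYP there, and the basal marker KRT5 was at 0 in every library.

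CENPN lies on the forward strand of chromosome 16 at chr16:81006498-81033114 (GRCh38, GENCODE 29). Its 3 most abundant transcripts share the coding exon at chr16:81020100-81020276 and then part. CENPN-202 (ENST00000305850, 339 codons) goes on to the exon at chr16:81022597-81022698, CENPN-201 (ENST00000299572, 204 codons) reads a separate last exon from base 81022755, and CENPN-204 (ENST00000428963, 305 codons) skips to base 81024715. The joins are shown because reads across these letters tell the transcripts apart. Each line gives the last 21 coding bases of the shared exon in lower case and the next 60 coding bases in capitals, from the GRCh38 genome with GENCODE 29 exons.
CENPN-202: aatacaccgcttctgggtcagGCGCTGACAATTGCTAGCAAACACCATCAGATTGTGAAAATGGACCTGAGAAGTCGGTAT
CENPN-201: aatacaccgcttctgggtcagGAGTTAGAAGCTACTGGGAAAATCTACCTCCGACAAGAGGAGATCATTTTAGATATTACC
CENPN-204: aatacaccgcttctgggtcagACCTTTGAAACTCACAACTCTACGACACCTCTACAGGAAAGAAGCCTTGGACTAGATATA

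CENPN was the only member whose level was higher with R1881, and it was higher in every arm. With control siRNA it had 696.1, 708.1 and 711.5 CPM in the R1881 libraries, against 44.8, 49.6 and 44.9 CPM in the vehicle libraries. With siNFYA it had 724.8, 756.4 and 757.0 CPM with R1881 and 47.7, 49.5 and 47.6 CPM with vehicle. With siKLF5 it had 729.3, 706.2 and 737.0 CPM with R1881 and 44.9 and 49.1 CPM with vehicle. The R1881 and vehicle libraries were far apart in each arm, and the libraries within a group lay close together. The fitted log2 change of CENPN was 3.94 (SE 0.0437) with siNFYA, 3.94 (SE 0.0534) with siKLF5 and 3.92 (SE 0.0422) with control siRNA. These placed CENPN at rank 81 of 12601 genes tested with siNFYA, rank 89 of 12733 with siKLF5 and rank 76 of 12601 with control siRNA, counted from the largest increase. On transcripts per 1000000 (TPM, a level corrected for transcript length) the log2 change of value plus 1 was smaller, at 2.98 with siNFYA, 3.11 with siKLF5 and 2.99 with control siRNA.

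**Figure D1:**
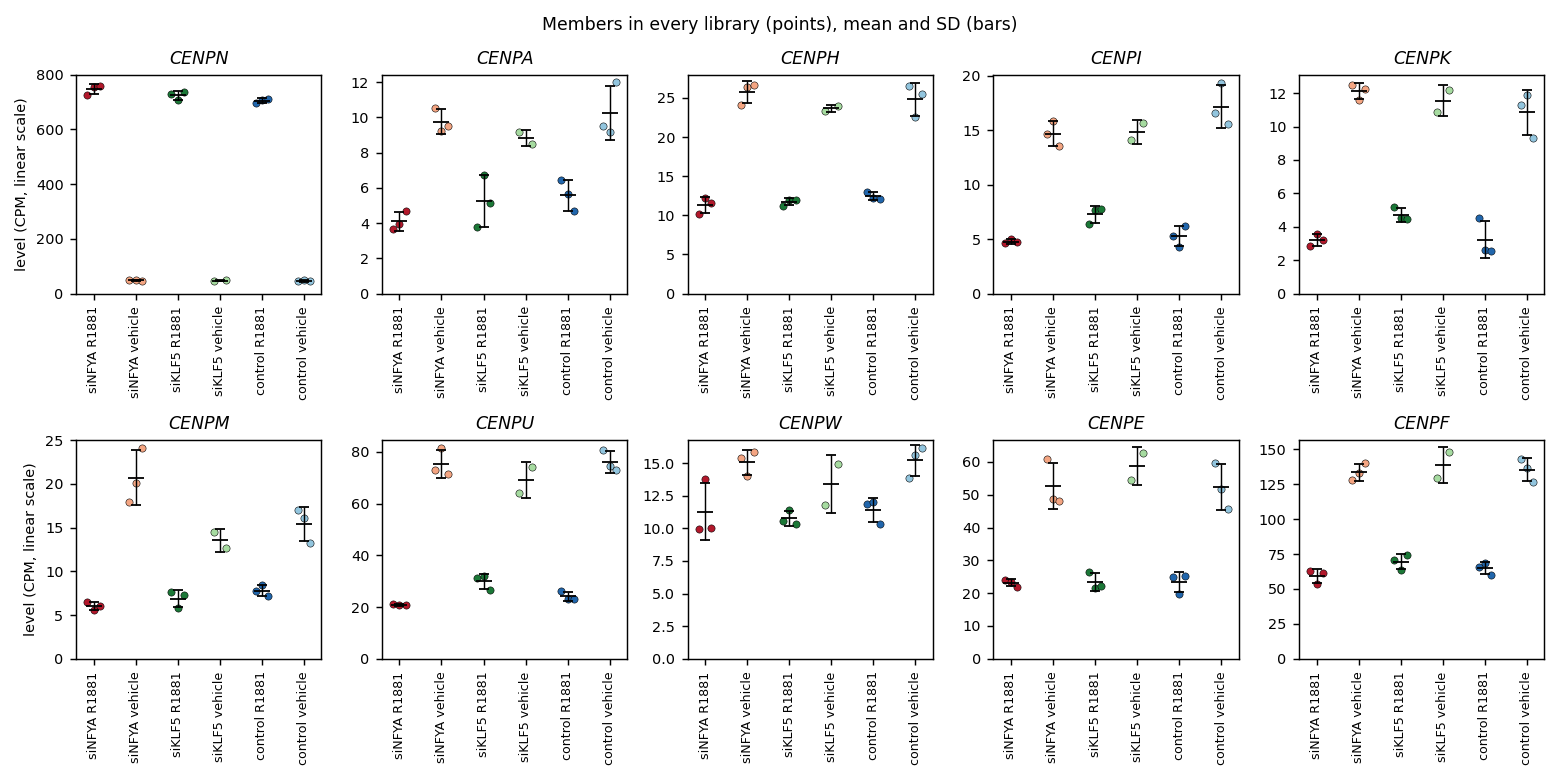
Level of each CENP gene in CPM (vertical axis, linear, from 0) in every library of the 6 groups, with black bars for the mean and SD of 2 or 3 libraries. CENPN sits at 696.1 CPM or more in every R1881 library, while the other 9 genes sit lower with R1881 than with vehicle in each arm.

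The remaining 9 members were lower with R1881. In each of the 3 arms the R1881 and vehicle libraries of all 10 members did not overlap. The same held for 64.5% of all genes tested with siNFYA, 69.3% with siKLF5 and 67.7% with control siRNA, and 62.1%, 59.2% and 63.0% of all genes in these arms passed an adjusted p of 0.05. Nothing is read from these shares, since the contrast was in view when the members were chosen. The median log2 change over the 10 members was -1.23 with siNFYA, -1.01 with siKLF5 and -1.03 with control siRNA, beside medians of -0.02, -0.01 and -0.01 over all genes tested. Scaling by library totals in place of TMM factors moved the median of all genes to -0.24 in both knockdown arms and -0.25 with control siRNA. With library totals CENPN was still higher and the other 9 members still lower in every arm. In bulk RNA, fewer cells of a kind and less RNA per cell cannot be told apart.

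CENPA, the centromeric histone, had 6.42, 5.63 and 4.68 CPM with R1881 and 9.53, 9.17 and 12.0 CPM with vehicle under control siRNA. Its counts were small, at 19 to 36 per library with R1881 over the 3 arms, and its log2 change was -1.26 with siNFYA, -0.75 with siKLF5 and -0.87 with control siRNA. The R1881 libraries were all below the vehicle libraries, but they spread widely.

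CENPH, CENPI, CENPK and CENPM form a subcomplex of the inner kinetochore. CENPI had 5.28, 4.31 and 6.24 CPM in control cells with R1881 and 16.5, 19.4 and 15.6 CPM with vehicle. CENPK had 4.53, 2.63 and 2.53 CPM with R1881 and 11.3, 11.9 and 9.34 CPM with vehicle. Both were at less than the lowest vehicle value in every R1881 library, and CENPK rested on 13 to 24 counts per library there. The log2 change of CENPI was -1.63 with siNFYA, -1.03 with siKLF5 and -1.70 with control siRNA. That of CENPK was -1.91 with siNFYA, -1.29 with siKLF5 and -1.74 with control siRNA. CENPH had 13.0, 12.2 and 12.1 CPM in control cells with R1881 and 26.5, 22.5 and 25.5 CPM with vehicle. Its log2 change was steady over the arms, at -1.19 with siNFYA, -1.02 with siKLF5 and -1.00 with control siRNA. CENPM had 7.74, 8.44 and 7.21 CPM with R1881 and 17.0, 16.1 and 13.2 CPM with vehicle, and its log2 change was -1.78 with siNFYA, -0.98 with siKLF5 and -0.98 with control siRNA.

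CENPU, which docks the mitotic kinase PLK1 at the kinetochore, had libraries close together within each group. It had 26.2, 23.3 and 23.0 CPM in control cells with R1881 and 80.7, 74.5 and 72.9 CPM with vehicle. Its log2 change was -1.86 (SE 0.0843) with siNFYA, -1.20 (SE 0.0912) with siKLF5 and -1.66 (SE 0.0789) with control siRNA. CENPW, a histone-fold protein that pairs with CENPT, had the smallest differences. It had 11.9, 12.0 and 10.3 CPM in control cells with R1881 and 13.8, 15.6 and 16.2 CPM with vehicle, and its log2 change was -0.41, -0.31 and -0.42 in siNFYA, siKLF5 and control arms. With siKLF5 its highest R1881 library had 11.4 CPM and its lowest vehicle library 11.8 CPM, so the groups were only just apart. Without siKLF5 vehicle replicate 3 the log2 change of CENPW in that arm was -0.13.

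Among the outer members, CENPE is a kinesin motor that moves chromosomes to the spindle equator, and CENPF is a large coiled-coil protein that builds up towards mitosis. CENPE had 24.9, 19.9 and 25.3 CPM in control cells with R1881 and 59.6, 51.9 and 45.6 CPM with vehicle. CENPF had 65.7, 68.8 and 60.3 CPM with R1881 and 143.1, 136.3 and 126.6 CPM with vehicle. Both were lower in every R1881 library than in any vehicle library, with log2 changes for CENPE of -1.19 with siNFYA, -1.32 with siKLF5 and -1.17 with control siRNA. The log2 change of CENPF was -1.18 with siNFYA, -1.00 with siKLF5 and -1.06 with control siRNA.

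**Figure D2:**
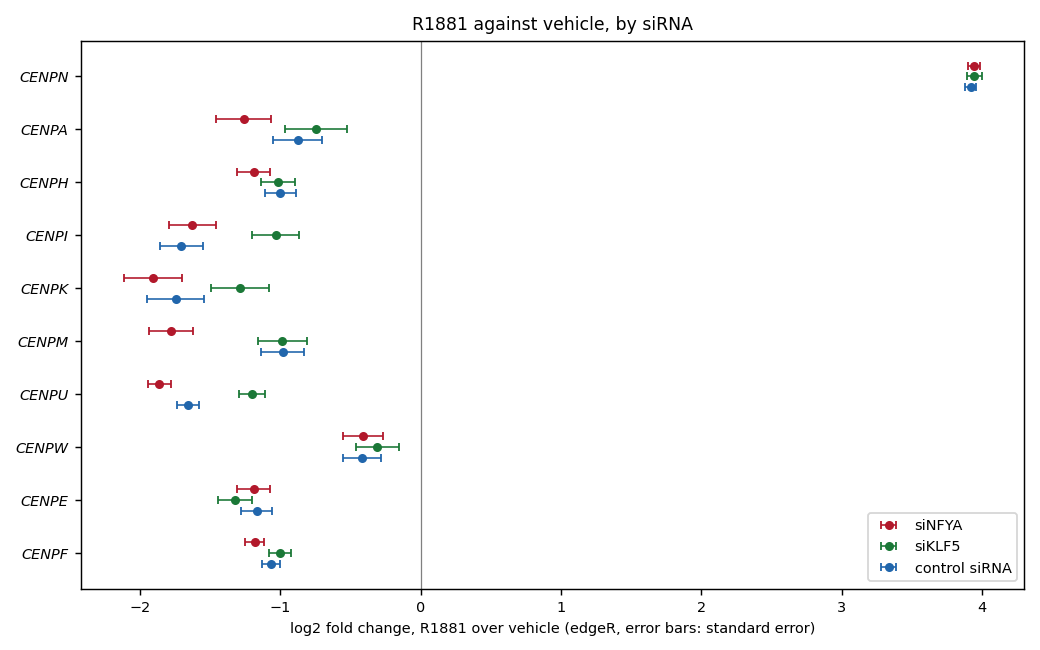
Fitted log2 fold change of each CENP gene, R1881 over vehicle (horizontal axis), in siNFYA, siKLF5 and control siRNA arms, with bars for the standard error. CENPN lies near 3.9 in all arms, and the other 9 genes lie between -1.91 and -0.31.

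The levels can be ordered between genes on the TPM scale. With control siRNA and R1881, CENPN averaged 584.8 ± 1.15 TPM, followed by CENPW at 34.3 ± 2.02, CENPU at 20.7 ± 3.52, CENPM at 19.0 ± 2.13 and CENPH at 15.6 ± 0.750 TPM (SD, n = 3 each). CENPF followed at 13.2 TPM, CENPA at 7.03, CENPE at 4.40, CENPK at 4.24 and CENPI at 3.77 TPM. CENPU and CENPM overlapped in these libraries, and CENPK overlapped both CENPE and CENPI. With vehicle the order differed. CENPU averaged 77.1 ± 4.22 TPM and CENPN 73.6 ± 12.5 TPM, which did not differ beyond their spread, followed by CENPW at 53.7, CENPM at 36.8, CENPH at 33.5, CENPF at 31.8, CENPK at 15.0, CENPA at 14.7, CENPI at 14.3 and CENPE at 10.2 TPM. CENPM, CENPH and CENPF overlapped there, and so did CENPK, CENPA and CENPI.

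The 9 lower members followed each other across libraries. Over the 17 libraries, their 36 pairs had Pearson correlations of log2 CPM between 0.76 and 0.98, with a median of 0.93. After the group means were removed, the same pairs ranged from -0.53 to 0.67 with a median of 0.06, and 20 of 36 were positive. CENPN correlated with them at -0.99 to -0.81. These values describe libraries that share the R1881 contrast and library depth.

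Over the same 17 libraries and 10816 genes with a mean of at least 5 CPM, the genes whose log2 CPM followed CENPN most closely were SORD, NCAPD3, FKBP5, MBOAT2 and STK39, with correlations between 0.9993 and 0.9996. FKBP5, a co-chaperone of steroid receptors and a well known androgen-induced gene, had a log2 change of 5.31 with R1881 under control siRNA. NCAPD3, a subunit of the condensin II complex, had 4.37. The most opposite were BCHE, BARD1, ST7, SELENBP1 and GRB10, with correlations between -0.9985 and -0.9976.

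The CENPN transcripts were not raised in equal measure. CENPN-202 had 299.8, 308.3 and 313.1 TPM in control cells with R1881, against 10.8, 12.8 and 13.0 TPM with vehicle, and its mean level was 25.2-fold higher. CENPN-201 had 172.1, 164.8 and 168.0 TPM with R1881 and 19.0, 22.4 and 19.6 TPM with vehicle, and its mean was 8.28-fold higher. CENPN-204 had 76.5, 83.2 and 62.5 TPM with R1881 and 17.4, 13.1 and 10.2 TPM with vehicle, a 5.44-fold higher mean. In TPM, CENPN-201 was above CENPN-202 in every control library with vehicle and below it in every control library with R1881. By estimated counts CENPN-201 was below CENPN-202 in the control vehicle libraries as well. There CENPN-201 had 96.5, 118.6 and 100.5 counts and CENPN-202 had 105.4, 129.2 and 127.2.

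CENPN-202 made up 53.9% ± 3.35 of the summed CENPN TPM with R1881 and 12.0% ± 6.13 with vehicle under siNFYA (SD, n = 3 each). Under siKLF5 it made up 53.6% ± 3.97 with R1881 and 18.2% ± 5.12 with vehicle (n = 3 and n = 2). Under control siRNA the shares were 52.5% ± 1.10 with R1881 and 16.9% ± 3.07 with vehicle (n = 3 each). The lowest R1881 library, at 49.0%, was far above the highest vehicle library, at 21.9%, and the mean difference over the 3 arms was 37.6 percentage points. CENPN-202 was singled out as the transcript with the highest mean TPM over all libraries, which the R1881 libraries dominate, so its share is given without a test.

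The share of CENPN-201 was near equal, at 26.6% with R1881 and 28.3% with vehicle under siNFYA, 26.2% with R1881 and 28.7% with vehicle under siKLF5, and 28.8% with R1881 and 27.9% with vehicle under control siRNA. The TPM share of CENPN-204 was 13.0% with R1881 and 19.8% with vehicle under siNFYA, where the groups overlapped. It was 13.1% with R1881 and 19.7% with vehicle under siKLF5, and 12.7% with R1881 and 18.7% with vehicle under control siRNA, without overlap in either arm. CENPN-207 averaged 10.3 TPM with R1881 and 9.88 TPM with vehicle under control siRNA, with overlapping libraries. CENPN-209, a short transcript with no coding sequence, was listed at 0 in every R1881 library of both knockdown arms. Its vehicle libraries averaged 12.4 TPM with siNFYA and 4.40 TPM with siKLF5. Under control siRNA it averaged 0.592 TPM with R1881 and 13.35 TPM with vehicle, where CENPN-202 averaged 12.2 TPM. By estimated counts CENPN-209 had only 4.16, 16.7 and 4.20 in these vehicle libraries, against 105, 129 and 127 for CENPN-202. CENPN-203, CENPN-205, CENPN-206 and CENPN-208 averaged at most 13.2 TPM in any group. These are estimates that divide reads among overlapping transcripts, and the vehicle libraries held only 225.2 to 357.6 counts for the whole gene, so the small transcripts in them rest on few reads.

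**Figure D3:**
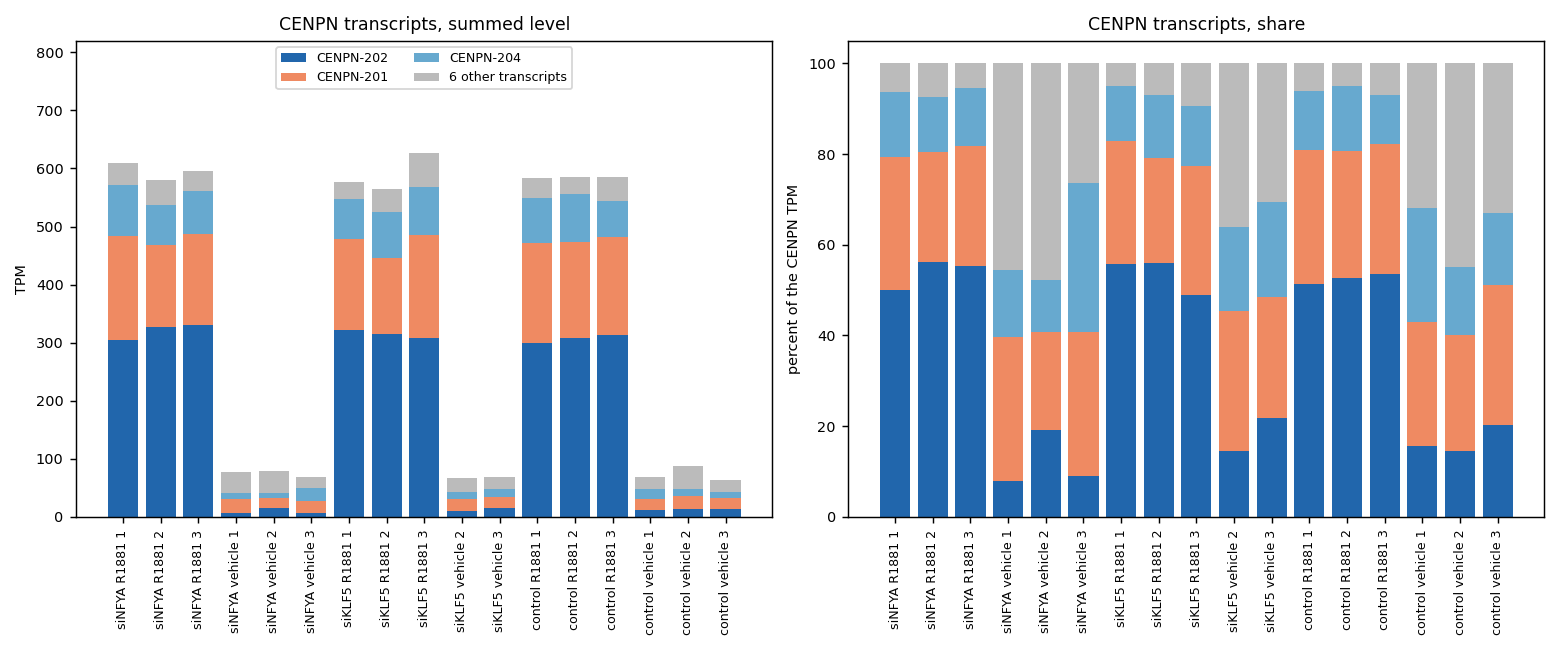
CENPN transcripts in every library, as stacked TPM (left) and as percent of the summed CENPN TPM (right). The 6 transcripts with the lowest mean TPM over all libraries are joined in grey. CENPN-202 makes up 49.0% to 56.3% in R1881 libraries and 7.98% to 21.9% in vehicle libraries, and CENPN-201 makes up 23.2% to 29.5% in R1881 libraries and 21.6% to 31.7% in vehicle libraries.

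Genes around CENPN on chromosome 16 were compared with R1881 under control siRNA. CDYL2, which encodes a chromodomain protein and lies 202169 bases before CENPN, averaged 266.8 ± 2.98 CPM with R1881 and 54.4 ± 4.38 CPM with vehicle (n = 3 each; log2 change 2.29, edgeR adjusted p = 1.94e-22). ATMIN, which starts 2733 bases after CENPN and encodes a partner of the ATM kinase, averaged 256.6 CPM with R1881 and 123.4 CPM with vehicle (log2 change 1.05, edgeR adjusted p = 1.37e-17). CMC2 runs on the opposite strand and shares 457 of the 3568 exonic bases of CENPN. It averaged 80.0 CPM with R1881 and 39.6 CPM with vehicle (log2 change 1.01, edgeR adjusted p = 1.64e-12). GCSH, which encodes a protein of the glycine cleavage system, had a log2 change of 0.34 (edgeR adjusted p = 7.78e-06). Of 6 listed neighbours that passed the filter on low counts, 4 rose, namely CDYL2, ATMIN, CMC2 and GCSH. Of the others, 1 fell and 1 did not pass the test. Among all genes 32.2% rose and 30.8% fell. C16orf46 had a log2 change of -0.09 (adjusted p = 0.865). PKD1L2 and BCO1 did not pass the filter. AC092718.8, chosen after its values were seen, shares 261 exonic bases with CENPN on the opposite strand. It averaged 3.93 CPM with R1881 and 0.935 CPM with vehicle, a log2 change of 2.05 that is given without a test. Its vehicle libraries held only 3.36 to 8.95 counts. The library kit keeps strand, but whether the counting used it is not given in the sources used here, so reads over shared bases of CENPN, CMC2 and AC092718.8 cannot be told apart with certainty.

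Other genes with a CENP name, or listed for a role at the centromere or kinetochore, were set beside the members in the control arm. Of 49 such genes, 35 were lower with R1881, 4 were higher and 10 did not pass the test, with a median log2 change of -0.88, beside 30.8% of all genes that fell and 32.2% that rose. Among 12 further CENP genes, 8 fell and 1 rose. The falls were CENPP (-1.54), CENPQ (-1.30), CENPJ (-1.10), CENPC (-0.95), CENPV (-0.90), CENPL (-0.68), CENPT (-0.39) and CENPO (-0.33) on the log2 scale. CENPX, a histone-fold partner of CENPS that also works in DNA repair, averaged 94.3 ± 3.48 CPM with R1881 and 44.2 ± 1.89 CPM with vehicle (n = 3 each; log2 change 1.09, edgeR adjusted p = 2.6e-14). The log2 change of CENPX was 0.73 with siNFYA and 1.01 with siKLF5. CENPB (-0.13, adjusted p = 0.053), CENPS (-0.09, adjusted p = 0.442) and ITGB3BP (-0.33, adjusted p = 0.0556) did not pass.

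Of the 8 genes listed for CENPA loading, 3 fell, namely the loading chaperone HJURP (-1.15), OIP5 (-1.19) and MIS18A (-1.13). The other 5, among them the histone binders RBBP4 (0.03, adjusted p = 0.481) and RBBP7 (0.02, adjusted p = 0.657), did not pass. In the KMN network, which grips microtubules, 8 of 10 fell, led by SPC24 (-1.51), NUF2 (-1.49) and KNL1 (-1.44), and MIS12 rose by 0.44. In the spindle checkpoint and corona list 9 of 12 fell, led by BUB1B (-1.67), KNTC1 (-1.37) and MAD2L1 (-1.22), while NDEL1 (0.76) and ZW10 (0.40) rose. All 7 genes of the chromosomal passenger complex and shugoshin list fell, led by HASPIN (-1.56), AURKB (-1.44) and SGO1 (-1.29). All 10 proliferation markers fell too, with a median log2 change of -1.45, led by the replication factor MCM2 (-2.10), E2F1 (-1.71) and MYBL2 (-1.53). The same 10 markers had medians of -1.69 with siNFYA and -1.33 with siKLF5. Their part in the lower CENP levels was not tested.

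**Figure D4:**
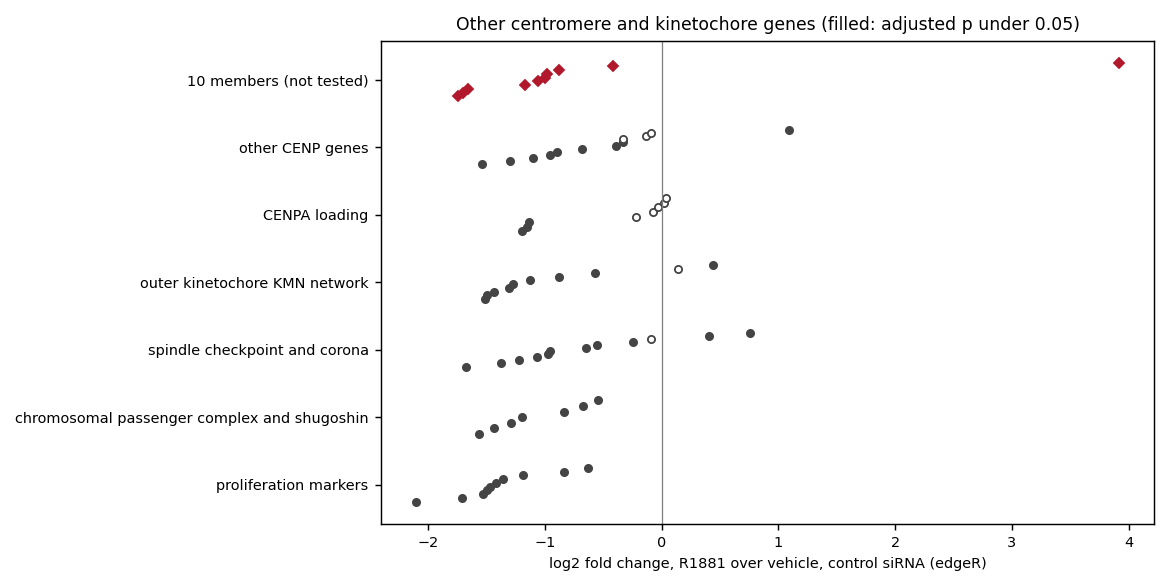
Fitted log2 fold change with R1881 over vehicle under control siRNA (horizontal axis) for the 10 CENP members (diamonds) and for 6 gene lists (circles, filled where the adjusted p was under 0.05). CENPN at 3.92 lies to the right of every gene on the lists, among which CENPX at 1.09 is the highest.

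Knockdown of NFYA or KLF5 was compared with control siRNA separately under R1881 and under vehicle. Both knockdowns share the control libraries. CCAAT and its reverse complement ATTGG are the letters bound by the NFY complex. TTTGAA with its reverse complement TTCAAA is the core of an element found in genes that peak towards mitosis. The promoter windows of 8 members were found in the RefSeq table (GRCh38.p14, 250 bases before to 50 after each start), and CENPH and CENPM were not found there. CCAAT was present on either strand in 6 of the 8, against 34.6% of 35116 windows, and at least 2 copies were present in 4 of the 8, against 10.8%. CENPF held 4, CENPK 3, CENPA 2, CENPW 2, CENPN 1 and CENPU 1, and CENPE and CENPI held none. TTTGAA was present in CENPA, CENPF and CENPN, 3 of the 8, against 15.2% of all windows. GGGCGG and AGAACA were searched in the same way. GGGCGG was present in 4 of the 8, against 45.0% of all windows, and AGAACA in 2 of the 8, against 14.8%. These are matches of letters and not sites of binding. The CENPN window (chr16:81006964-81007263) lies within the first exon of CENPN-202 (chr16:81006498-81007277) and of CENPN-201 (chr16:81006552-81007277). Its matches therefore lie after the annotated starts of these transcripts and not before them. The CENPA window (chr2:26785806-26786105, forward strand) and the CENPF window (chr1:214602945-214603244, forward strand) are shown, with 30 bases around the CENPN matches (chr16:81007201-81007230, forward strand). They are shown because each carries CCAAT or its reverse complement and also TTTGAA. These letters are in capitals.
CENPA: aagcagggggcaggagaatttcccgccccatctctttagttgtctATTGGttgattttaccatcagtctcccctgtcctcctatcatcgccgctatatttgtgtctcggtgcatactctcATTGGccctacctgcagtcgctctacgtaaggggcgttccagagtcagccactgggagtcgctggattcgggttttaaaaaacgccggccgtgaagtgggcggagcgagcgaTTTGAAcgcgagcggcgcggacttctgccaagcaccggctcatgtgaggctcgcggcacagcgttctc
CENPF: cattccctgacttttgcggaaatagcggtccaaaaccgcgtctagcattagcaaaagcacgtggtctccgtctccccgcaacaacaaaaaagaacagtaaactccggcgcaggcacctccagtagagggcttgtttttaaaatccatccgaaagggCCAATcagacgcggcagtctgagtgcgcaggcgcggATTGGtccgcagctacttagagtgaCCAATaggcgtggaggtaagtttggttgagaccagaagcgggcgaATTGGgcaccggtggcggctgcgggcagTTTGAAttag
CENPN: aactgcaATTGGtggcTTTGAAggcgcggc

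CENPM, whose protein belongs to the inner CENPH, CENPI and CENPK subcomplex, was the only member to pass a knockdown test. With vehicle it had 17.9, 20.1 and 24.1 CPM in siNFYA cells, against 17.0, 16.1 and 13.2 CPM in control cells. The siNFYA libraries were all above the control libraries, by little in the closest pair, and 30.7% of all genes did not overlap in this comparison either. Its log2 change was 0.42 (SE 0.123, edgeR adjusted p = 0.0221). This was 1 of 10 members, beside 13.5% of all genes that passed and 6.67% that passed as higher, so the members' share was near that of all genes. An unadjusted p under 0.05 was held by CENPM alone (10.0%), a share below the 26.7% of all genes. The call was lost without control vehicle replicate 3 (0.33, adjusted p = 0.112), without siNFYA vehicle replicate 2 (0.44, adjusted p = 0.0558), without siNFYA vehicle replicate 3 (0.30, adjusted p = 0.151), with DESeq2 (0.41, adjusted p = 0.109) and with limma on log2(TPM + 1) (0.32, adjusted p = 0.241).

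Under R1881, none of the 10 members passed between siNFYA and control cells by edgeR or DESeq2, in a comparison where 5.97% of all genes passed. Only 1 member had an unadjusted p under 0.05, a share below the 19.1% of all genes. That member was CENPN, with 724.8, 756.4 and 757.0 CPM in siNFYA cells and 696.1, 708.1 and 711.5 CPM in control cells. The groups did not overlap, but the difference was small, at a log2 change of 0.09 (SE 0.0312, edgeR adjusted p = 0.097). Without siNFYA R1881 replicate 1 it passed (0.11, adjusted p = 0.0336). CENPM had 6.51, 5.56 and 5.98 CPM in siNFYA cells and 7.74, 8.44 and 7.21 CPM in control cells, also without overlap, with a log2 change of -0.37 (SE 0.192, adjusted p = 0.304). CENPU was likewise lower in every siNFYA library (log2 change -0.20, SE 0.106, adjusted p = 0.301). The 3 members without overlap stand beside 24.4% of all genes. Of the 4 members with at least 2 CCAAT matches, CENPF had a log2 change of -0.13 (SE 0.0771, adjusted p = 0.382) and CENPA of -0.44 (SE 0.221, adjusted p = 0.283). The other 2 were near 0, with CENPK at 0.00487 (SE 0.270, adjusted p = 0.996) and CENPW at -0.000675 (SE 0.150, adjusted p = 0.999). Under vehicle the log2 changes of these 4 with siNFYA were -0.06 (CENPA), -0.01 (CENPF), 0.17 (CENPK) and -0.01 (CENPW), and none passed.

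With siKLF5, none of the 10 members passed under vehicle by edgeR or DESeq2, where 1.32% of all genes passed, and none had an unadjusted p under 0.05, beside 12.9% of all genes. Their log2 changes lay between -0.21 (CENPA) and 0.16 (CENPE). Under R1881 none passed by edgeR or DESeq2 either, where 1.38% of all genes passed, and 3 members had an unadjusted p under 0.05, as did 12.5% of all genes. CENPU had 31.2, 31.8 and 26.7 CPM in siKLF5 cells and 26.2, 23.3 and 23.0 CPM in control cells, with a log2 change of 0.33 (SE 0.108, adjusted p = 0.156). CENPI had 6.40, 7.68 and 7.73 CPM in siKLF5 cells and 5.28, 4.31 and 6.24 CPM in control cells, with a log2 change of 0.47 (SE 0.201, adjusted p = 0.314). CENPU and CENPI did not overlap between these groups, nor did CENPH, which was lower (log2 change -0.07, adjusted p = 0.897), beside 19.6% of all genes. CENPK had 5.20, 4.49 and 4.45 CPM in siKLF5 cells and 4.53, 2.63 and 2.53 CPM in control cells, with overlap and a log2 change of 0.56 (SE 0.262, adjusted p = 0.386).

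**Figure D5:**
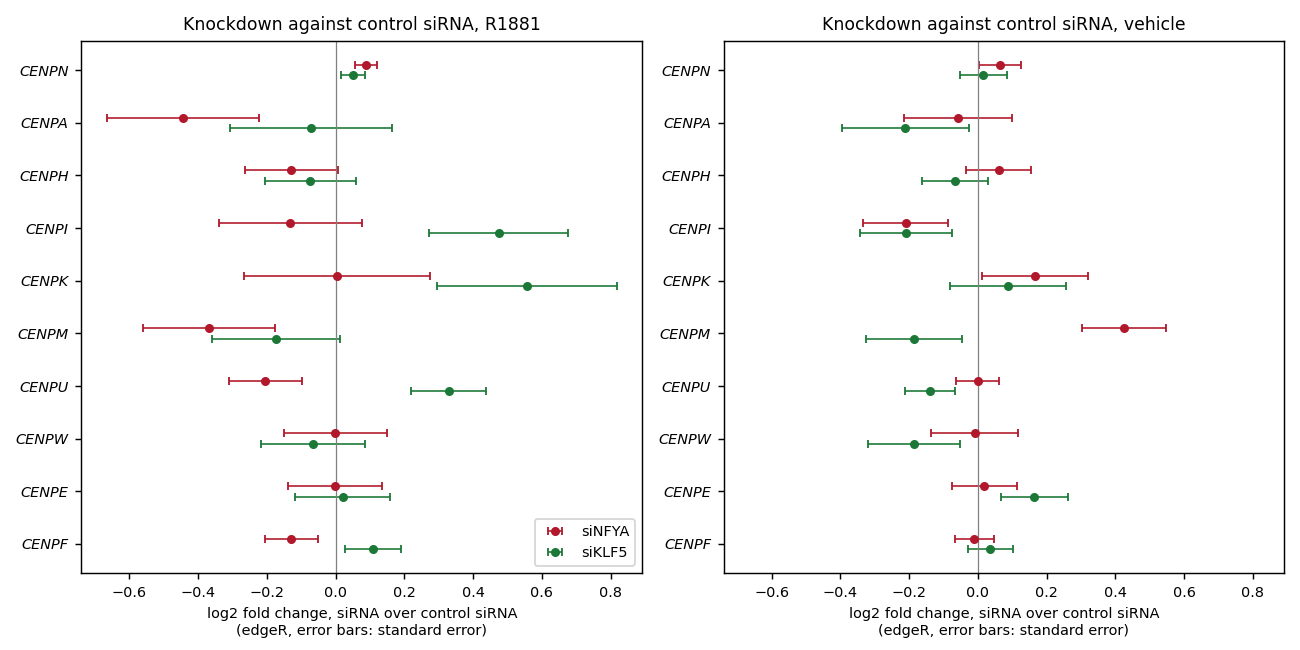
Fitted log2 fold change of each CENP gene, knockdown over control siRNA (horizontal axis), under R1881 (left) and vehicle (right), with bars for the standard error. Under vehicle CENPM with siNFYA lies at 0.42, and CENPN stays within 0.09 of 0 in all 4 comparisons.

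Whether the R1881 change differed between a knockdown and control siRNA was tested with an interaction term. For siNFYA none of the 10 members passed by edgeR or DESeq2, where 0.738% of all genes passed, and 1 member had an unadjusted p under 0.05, a share near the 12.0% of all genes. It was CENPM, whose R1881 change was 0.79 lower on the log2 scale with siNFYA than with control siRNA (interaction -0.79, SE 0.228, adjusted p = 0.108). For siKLF5 none passed by edgeR or DESeq2, where 0.0157% of all genes passed. Beside 6.71% of all genes, a larger share of the members, 2 of 10 (20.0%), had an unadjusted p under 0.05. They were CENPU (interaction 0.47, SE 0.131, adjusted p = 0.337) and CENPI (interaction 0.68, SE 0.242, adjusted p = 0.546), whose R1881 changes were less negative with siKLF5. The CENPU interaction passed without siKLF5 vehicle replicate 3 (0.58, adjusted p = 0.0458), which leaves 1 library in that group. For CENPN the interaction was 0.02 (SE 0.0689) with siNFYA and 0.04 (SE 0.0767) with siKLF5.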

How the data were processed

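The deposited tables hold estimated counts and TPM per gene and transcript for LNCaP libraries. FastQC, Trimmomatic, kallisto and DESeq2 appear without versions in the submitters' processing notes, beside the build GRCh38. No strand setting is stated there. The estimated counts were deposited as made by the authors and were rounded here to whole numbers. TPM values were deposited by the authors and sum to 1000000 per library over genes. Control libraries with siNFYA libraries (12) and with siKLF5 libraries (11) were in separate tables, and the control columns were identical in both; the 2 tables were fitted apart.

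Genes passing filterByExpr (12601 and 12733) were fitted with edgeR 4.0.16 in R 4.3.3 (TMM, 1 coefficient per group, quasi-likelihood F test, Benjamini-Hochberg over all genes tested, threshold 0.05). CPM values printed per library use TMM factors over all 17 libraries. Standard errors were derived from the same fits. The code was tested on simulated counts. Alternatives were DESeq2 1.42.0, limma 3.58.1 on log2(TPM + 1), library totals, RLE factors, no filter, only the compared groups, each library left out and, chosen after seeing the data, all 17 libraries in 1 fit.

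The members and lists were chosen with earlier results of these data known. All 10 members and all CENPN transcripts were named, with at most the 3 largest passing changes of each further list, all further CENP genes, the CENPN neighbours that passed the filter (1 listed item is not reported here), NFYA, KLF5 and KLK3, and the 5 genes most like and most opposite to CENPN by Pearson correlation. CENPV, CENPL, CENPT and CENPO fall under the further CENP genes. A permutation test planned for the CENPN transcript share is not reported, because that contrast chose CENPN. Gene positions are from GENCODE 29 and promoter windows from RefSeq. Depth ranged from 4416653 to 6872421 estimated counts per library.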

Additional observations from a re-analysis of the deposited data

How the results depend on the processing

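No paired analysis was possible because the labels number all 18 libraries without repeating a number between groups, and the replicate numbers used here only name libraries within a group. The CENPN log2 change with R1881 in siNFYA, siKLF5 and control arms was 3.72, 3.71 and 3.68 with library totals and 2.98, 3.11 and 2.99 with limma on log2(TPM + 1). The count of members passing for siNFYA with vehicle was 1 and became 0 with DESeq2 and with limma, and 0 to 1 with a library left out. Leaving out a library gave 0 to 1 members for siNFYA with R1881 and for the siKLF5 interaction. The share difference of CENPN-202 was 41.9 points with siNFYA alone, 35.3 with siKLF5 alone and 35.6 with control siRNA alone, against 37.6 over all arms.

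Signs turned only for changes that did not pass. The causes were not tested. With limma on log2(TPM + 1) the log2 changes became 0.07 (CENPE) and 0.02 (CENPF) for siNFYA with R1881, -0.09 (CENPE) and 0.02 (CENPH) for siKLF5 with R1881, -0.06 (CENPF) and -0.11 (CENPN) for siKLF5 with vehicle, 0.01 (CENPE), 0.15 (CENPF), -0.14 (CENPI) and 0.00 (CENPN) for the siNFYA interaction, and 0.06 (CENPH) and -0.29 (CENPM) for the siKLF5 interaction. For siNFYA with vehicle, CENPU became -0.02 with DESeq2, -0.01 with RLE factors, library totals or no filter and 0.00 with all 17 libraries, and CENPE became 0.00 with DESeq2. For siNFYA with R1881, CENPE and CENPW became 0.00 with library totals and 0.02 with only the compared groups, and CENPK became 0.00 with no filter. CENPM in the siKLF5 interaction became 0.00 with all 17 libraries.

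With a library left out, values that crossed 0 were as follows. For siNFYA with vehicle they ran from -0.13 to 0.07 (CENPA), -0.10 to 0.12 (CENPE), -0.06 to 0.03 (CENPF), -0.01 to 0.11 (CENPH), -0.06 to 0.04 (CENPU) and -0.07 to 0.05 (CENPW). For siNFYA with R1881 they ran from -0.11 to 0.06 (CENPE), -0.26 to 0.00 (CENPI), -0.14 to 0.33 (CENPK) and -0.18 to 0.09 (CENPW). For the siNFYA interaction they ran from -0.13 to 0.10 (CENPE), -0.05 to 0.21 (CENPI), -0.30 to 0.16 (CENPK), -0.03 to 0.05 (CENPN) and -0.18 to 0.10 (CENPW). For siKLF5 with vehicle they ran from -0.07 to 0.13 (CENPF), -0.01 to 0.17 (CENPK) and -0.05 to 0.08 (CENPN), and with R1881 from -0.32 to 0.12 (CENPA) and -0.08 to 0.09 (CENPE). For the siKLF5 interaction they ran from -0.11 to 0.33 (CENPA), -0.03 to 0.17 (CENPF), -0.06 to 0.06 (CENPH), -0.08 to 0.13 (CENPM), -0.03 to 0.10 (CENPN) and -0.04 to 0.30 (CENPW). CENPA, CENPI and CENPK rest on the fewest counts.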
